A study of Homo sapiens with 36 samples.

Results

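The 44 genes described here encode the transporters and enzymes of glycolysis, the subunits and regulators of the hypoxia-inducible factors (HIFs), and a group of hypoxia-inducible targets. They were chosen by name and matched to Ensembl gene IDs, and all 44 were found among the 57500 gene rows of the count files. All 44 also passed the filter on low counts, which left 17720 genes for testing. THP-1 is a human monocytic leukaemia line. The 36 libraries came from 3 stably transduced THP-1 lines, in which lentivirus delivered either a non-target short hairpin RNA (shNT) or hairpins against the orphan nuclear receptors NR4A2 (shNR4A2) and NR4A3 (shNR4A3). Each line was kept in pH-buffered medium at 5% CO2 (normocapnia) or 10% CO2 (hypercapnia) for 4 h, either in the basal state or with LPS at 2.5 µg/mL over the last 2 h, with 3 libraries for each of the 12 conditions. The comparisons ask how buffered hypercapnia and LPS change these genes and whether the 2 receptors modify the change. Every group carries a hairpin, so none represents unmodified cells. The study describes its sequencing data as coming from individual experiments, so the p-values measure the spread between experiments on the same line. Whether a line is 1 clone is not given in the sources used here.

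Glycolysis splits glucose into pyruvate, and lactate dehydrogenase turns pyruvate into lactate. HIFs are pairs of an oxygen-sensitive alpha subunit (HIF1A or EPAS1) and ARNT. In the presence of oxygen, the prolyl hydroxylases EGLN1, EGLN2 and EGLN3 mark the alpha subunit for capture by VHL and degradation, and at low oxygen the pair binds DNA and raises the transcription of glycolytic genes and other targets. In monocytes and macrophages, LPS raises HIF1A transcription through NF-kB, and activated cells turn towards glycolysis. RNA levels do not report the amount of HIF protein or the flux through glycolysis, neither of which was measured here.

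Total counts ranged from 16171161 to 23929138 per library (median 19639071). The myeloid factor SPI1 was detected in every library, and the summed level of 10 myeloid markers was 1074 to 2607 TPM (transcript abundance scaled for gene length and library depth), while 3 T cell markers summed to at most 1.67 TPM and 3 erythroid markers to at most 0.477 TPM. The summed myeloid markers differed between the lines, as given beside the knockdown results. As a check of the labels, NR4A2 in shNR4A2 cells had a log2 fold change against shNT of -0.96 (SE 0.18, adjusted p = 9.44e-05) without and -1.59 (SE 0.11, adjusted p = 1.18e-12) with LPS. NR4A3 in shNR4A3 cells had one of -1.43 (SE 0.34, adjusted p = 0.00317) in the basal state and -0.96 (SE 0.10, adjusted p = 1.44e-08) with LPS. The depletion was thus partial in both lines. As RNA came from bulk cultures, a lower level in a part of the cells cannot be told apart from a lower level in every cell. Receptors that were not the target also differed from shNT. In shNR4A2, NR4A3 was higher, at 0.68 (SE 0.24, adjusted p = 0.0381) in the basal state and 0.36 (SE 0.10, adjusted p = 0.00723) with LPS. In shNR4A3, NR4A2 was lower with LPS, at -0.35 (SE 0.11, adjusted p = 0.0189), and NR4A1 in the basal state, at -0.55 (SE 0.14, adjusted p = 0.00481). The other such comparisons were not called.

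HIFs bind a core of 5 bases, ACGTG or GCGTG, and the promoters of the members were searched for it because several members moved together at 10% CO2. RefSeq promoters (build GRCh38.p14) were available for 39 of the 44 genes, and BNIP3L, NDRG1, SLC2A3, VEGFA and VHL had no entry. Both strands of the 250 bases before each start site were read. A core on the lower strand appears below as CACGT or CACGC, and the palindrome CACGTG, the E-box bound by factors such as BHLHE40 and MXI1, holds a core on each strand. At least 1 core stood in 39 of the 66 promoters of these genes (59.1%), against 43.2% of all 35116 promoters in the table. CACGTG stood in 10 of the 66 (15.15%), against 6.34% of all. The promoters of the 13 genes that fell at 10% CO2 with LPS held a core in 16 of 22 cases (72.7%), those of the 4 genes that rose held one in 5 of 6 (83.3%), and those of the other 22 genes held one in 18 of 38 (47.4%). These shares count promoters and not genes. Among the other 22 genes, HK1 and PFKM had 7 promoters each, of which 1 each held a core, and this lowers the share of that group. The single site of KDM3A was counted in 2 promoters. The shares carry no test, promoters were not matched for base composition, and a match of letters does not show that a factor binds. The members were chosen by name to include HIF targets, so their share against all promoters does not bear on the CO2 response. For 9 genes on which the results turn, 1 of the sites is printed with its core, or the E-box that contains it, in capitals, each read on the strand of its gene. HK2, LDHA, BHLHE40, SLC2A6, PDK1 and ANKRD37 held further cores that are not printed or, in the stretch of PDK1, stand in lower case. KDM3A, PDK1, EPAS1, BHLHE40 and LDHA fell at 10% CO2, ANKRD37, HK2 and SLC2A6 rose, and ADM stands for the LPS response.
KDM3A, chr2:86441335-86441359, + strand: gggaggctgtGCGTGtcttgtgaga
PDK1, chr2:172556063-172556087, + strand: tgctgcccgcCACGTccctcacgta
EPAS1, chr2:46297280-46297304, + strand: gcctgccggcGCGTGcccgcccaca
BHLHE40, chr3:4979253-4979277, + strand: cagtggccagACGTGcctggagtca
LDHA, chr11:18394466-18394491, + strand: gcccgactcaCACGTGggttcccgca
ANKRD37, chr4:185396669-185396694, + strand: cgccgggctcCACGTGccagtgtttg
HK2, chr2:74834966-74834991, + strand: ttgctgcgccCACGTGggagggagcc
SLC2A6, chr9:133479179-133479203, - strand: ccattggccgGCGTGtctctgcagg
ADM, chr11:10304962-10304986, + strand: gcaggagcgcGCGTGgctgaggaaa
Cores stood both in promoters of genes that fell and in promoters of genes that rose. The promoters of SLC2A1, ARNT and PKM in the table held none.

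Levels spanned 4 orders of magnitude. Per length of transcript, the most abundant members over the 36 libraries were the lower glycolytic enzymes ENO1 (mean 1993 TPM) and GAPDH (1834 TPM), then ALDOA (1103 TPM), PGK1 (634 TPM), LDHB (628 TPM) and LDHA (493 TPM). Of the alternative forms of an enzyme, PFKL (143 TPM) and PFKP (132 TPM) exceeded PFKM (1.59 TPM), ENO1 exceeded ENO2 (4.00 TPM) and ALDOA exceeded ALDOC (165 TPM). SLC2A1, the widespread glucose transporter GLUT1, had a mean of 193 TPM, against 4.59 TPM for SLC2A3. HIF1A (82.0 TPM) and ARNT (74.1 TPM) were well above EPAS1 (14.3 TPM). EGLN3 was near the limit of detection, with 1 to 25 counts per library. Reads of GAPDH, PGK1, ENO1, LDHA, LDHB and other enzymes with processed pseudogenes of near-identical sequence may have been lost or divided by the counting, so their absolute levels are uncertain.

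The mean of log2 CPM (counts scaled for depth and RNA composition) over the 44 genes was higher with LPS and lower at 10% CO2 in each line. In shNT cells its 3 libraries were at 6.03, 6.01 and 5.86 at 5% CO2, at 5.78, 5.80 and 5.86 at 10% CO2, at 6.21, 6.22 and 6.13 at 5% CO2 with LPS and at 6.07, 6.001 and 6.11 at 10% CO2 with LPS. At each CO2 level the libraries with LPS were above those without. Between the CO2 levels the libraries overlapped in the basal state in every line. With LPS they did not overlap in shNT and shNR4A2. In shNR4A3 with LPS the highest library at 10% CO2 reached the lowest at 5%, both at 6.233. The difference of means with LPS was 0.23 in shNT, 0.25 in shNR4A2 and 0.25 in shNR4A3, against 0.04, 0.06 and 0.07 for the mean of all tested genes. Without SLC2A6, which moved far more than any other member, these 3 values were 0.11, 0.13 and 0.12, and without scaling for RNA composition they were 0.0458, 0.0244 and 0.0381. The difference of 10% from 5% CO2, averaged over the lines, was -0.112 without and -0.113 with LPS, against -0.01 and 0.00 for all tested genes. By line it was -0.15, -0.09 and -0.09 in basal shNT, shNR4A2 and shNR4A3 cells and -0.13, -0.11 and -0.10 with LPS. Without replicate 2 at 10% CO2 it was -0.0442 in basal shNR4A2 and -0.0370 in shNR4A3 with LPS. The pooled SD between libraries of 1 condition was 0.06. These means are a description and were not tested.

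**Figure D1:**
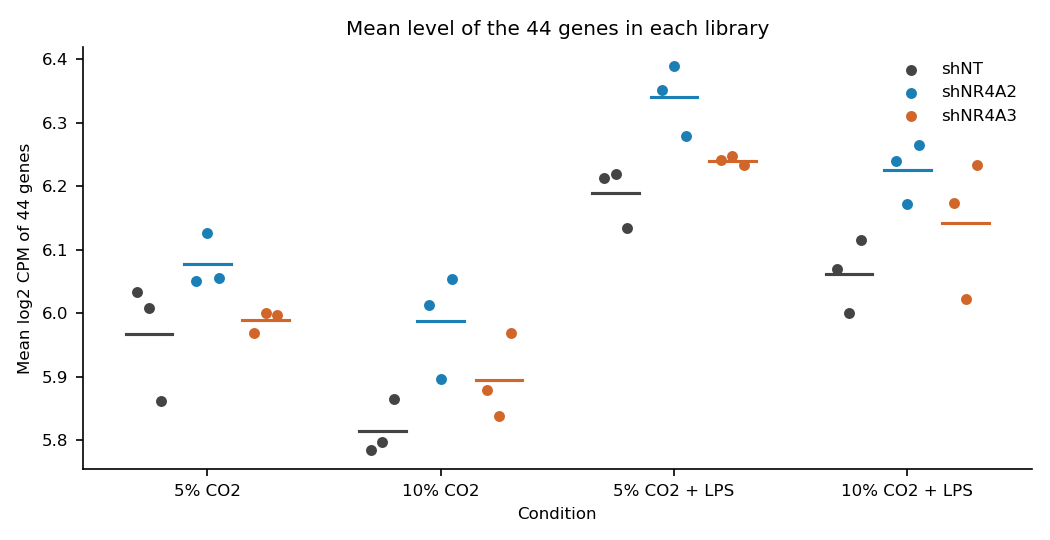
Mean log2 CPM of the 44 genes (vertical axis) in each library, by condition (horizontal axis) and line (colour); points are libraries and bars are means of 3. In shNT cells at 5% CO2 the libraries with LPS lie at 6.13 to 6.22 and those without at 5.86 to 6.03.

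LPS separated the members into a strongly induced pair, a group of moderate changes in both directions, and abundant enzymes that moved little. Of the 44 genes, 10 rose and 8 fell in shNT (19.7% and 22.6% of all tested genes rose and fell), 14 rose and 8 fell in shNR4A2 (22.5% and 25.5%), and 17 rose and 8 fell in shNR4A3 (22.3% and 25.8%). The share of members that rose was above the background in each line, by little in shNT, and the share that fell was below it. The background was not matched for abundance. In replicate 1 of shNT at 5% CO2 the mean log2 CPM was 6.03 for the members and 3.14 for all tested genes. Smaller changes can pass the threshold in abundant genes. A gene is said to rise or fall where the mean of both CO2 levels passed an adjusted p of 0.05. ADM, ANKRD37, ENO1, GAPDH, HIF1A, P4HA1, PGK1, PKM, SLC2A6 and VHL rose in all 3 lines, ARNT, KDM3A, MXI1, PFKFB4 and SLC2A1 fell in all 3, and 17 members were called in none. Fold changes were computed after TMM scaling, which corrects for differences in RNA composition. With library size only, the median log2 fold change of all tested genes with LPS was -0.21 in shNT, -0.24 in shNR4A2 and -0.23 in shNR4A3, against -0.02, -0.01 and -0.01 with TMM, and the genes called higher and lower numbered 1860 and 7116, 2038 and 7905, and 2193 and 7590 in these lines. Under that scaling 5, 8 and 6 members rose and 18, 18 and 17 fell in the 3 lines, and the median of the 44 genes was -0.12, -0.17 and -0.12, against 0.07, 0.06 and 0.09 with TMM. LPS fold changes on the TMM scale therefore exceed the ratios of the TPM values printed beside them.

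The largest change with LPS was in SLC2A6, which encodes GLUT6, a hexose transporter of intracellular membranes. In shNT cells it was at 8.77 to 12.6 TPM (median 10.3) in the 6 basal libraries and at 305 to 427 TPM (median 406) in the 6 with LPS, and the groups were far apart in every line. On the log2 scale it rose by 5.48 (SE 0.16, adjusted p = 1.92e-21) in shNT, 5.69 (SE 0.16, adjusted p = 8.24e-22) in shNR4A2 and 5.69 (SE 0.16, adjusted p = 7.57e-22) in shNR4A3. The plasma membrane transporter SLC2A1 moved the other way. It was at 223 to 264 TPM (median 242) in basal shNT libraries and at 103 to 173 TPM (median 127) with LPS, without overlap, as in the other lines. The log2 fold changes were -0.63 (SE 0.09, adjusted p = 5.18e-07), -0.78 (SE 0.09, adjusted p = 5.41e-09) and -0.82 (SE 0.09, adjusted p = 1.76e-09) in shNT, shNR4A2 and shNR4A3. After 2 h of LPS, SLC2A6 thus stood above SLC2A1 in level in every library, the reverse of the basal state. SLC2A3 (GLUT3) was called in shNR4A3 only, at 0.67 (SE 0.23, adjusted p = 0.0168), against 0.21 (SE 0.22) in shNT and 0.42 (SE 0.23) in shNR4A2, and neither knockdown line differed from shNT in this response. The call of SLC2A3 was lost with library size only.

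ADM, a secreted vasodilator peptide, was the second most induced member. In shNT it lay at 0.184 to 0.969 TPM (median 0.434) in basal and 2.36 to 4.87 TPM (median 3.47) in LPS-stimulated libraries. In shNR4A2 the corresponding ranges were 0.624 to 1.27 TPM (median 0.914) and 3.88 to 12.3 TPM (median 9.72), and in shNR4A3 they were 0.336 to 1.24 TPM (median 1.09) and 4.26 to 9.11 TPM (median 6.65). The groups did not overlap in any line, although basal levels rest on few counts, the lowest library having 3. The log2 fold changes were 3.24 (SE 0.36, adjusted p = 9.76e-09), 3.59 (SE 0.30, adjusted p = 1.05e-11) and 3.10 (SE 0.31, adjusted p = 4.88e-10). VEGFA, the main angiogenic growth factor, was called in shNR4A3 only, at 0.61 (SE 0.20, adjusted p = 0.0125), and not with library size only. In the other lines it had values of 0.36 (SE 0.20, adjusted p = 0.147) in shNT and 0.06 (SE 0.20, adjusted p = 0.828) in shNR4A2, and the libraries overlapped in all 3 lines. VEGFB was not called in any line.

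Among the HIF subunits, HIF1A rose and ARNT fell slightly, and EPAS1 was not called. HIF1A was at 53.9 to 68.2 TPM (median 60.9) in basal and 84.9 to 102 TPM (median 96.0) in LPS-stimulated shNT libraries, and at 46.9 to 60.1 TPM (median 57.5) and 97.4 to 142 TPM (median 124) in shNR4A3. The 6 LPS libraries were above the 6 basal ones in every line. It rose on the log2 scale by 0.88 (SE 0.07, adjusted p = 5.98e-12) in shNT, 0.96 (SE 0.07, adjusted p = 4.46e-13) in shNR4A2 and 1.36 (SE 0.07, adjusted p = 5.06e-17) in shNR4A3. The response of shNR4A3 exceeded that of shNT by 0.48 (SE 0.10, adjusted p = 0.026), a call that was lost in 8 of 24 fits without 1 library. No other member had an LPS response called as different between shNR4A3 and shNT, where 0.378% of all tested genes were called. Between shNR4A2 and shNT no member was called (0 by DESeq2, and 1 at an unadjusted p under 0.05), where 0.237% of all genes were. The 2 interactions share the shNT libraries. ARNT had log2 fold changes of -0.14 (SE 0.06, adjusted p = 0.048), -0.16 (SE 0.06, adjusted p = 0.0149) and -0.24 (SE 0.06, adjusted p = 0.000589) in the 3 lines, and its call in shNT was lost by DESeq2 and in 6 of 12 fits without 1 library. EPAS1 was at -0.10 (SE 0.11), -0.07 (SE 0.10) and -0.13 (SE 0.11). HIF1A shares 5.1% of its exonic bases with HIF1A-AS1 and 1 unnamed gene, and the strand setting of the counting is not given.

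Of the genes that mark HIF for degradation, VHL rose, while EGLN1 and EGLN2 each fell in 2 lines. VHL, which recognises hydroxylated HIF alpha, rose in all 3 lines, with log2 fold changes of 0.56 (SE 0.07, adjusted p = 1.54e-08), 0.65 (SE 0.07, adjusted p = 3.9e-10) and 0.60 (SE 0.07, adjusted p = 2.24e-09). EGLN1, the main HIF prolyl hydroxylase, was at 64.3 to 73.5 TPM (median 72.2) in basal and 40.0 to 51.4 TPM (median 45.4) in LPS-stimulated shNR4A3 libraries and fell by 0.41 on the log2 scale (adjusted p = 5.55e-07). It also fell in shNT, at -0.19 (SE 0.06, adjusted p = 0.0114), and was not called in shNR4A2, at -0.11 (SE 0.06). EGLN2 fell in shNT and shNR4A2, at -0.30 (SE 0.10) and -0.28 (SE 0.10), although 27.2% of its exonic bases are shared with the readthrough gene RAB4B-EGLN2. EGLN3 was not called.

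Among the other HIF targets, ANKRD37 and P4HA1 rose in all 3 lines and KDM3A and MXI1 fell in all 3. ANKRD37, a HIF target of little known function, was at 2.45, 2.50 and 1.18 TPM at 5% CO2 and 4.53, 4.33 and 3.05 TPM at 5% CO2 with LPS in shNT. It rose by 1.17 (SE 0.17, adjusted p = 8.71e-07), 1.03 (SE 0.16, adjusted p = 3.07e-06) and 0.80 (SE 0.18, adjusted p = 0.000269) on the log2 scale in the 3 lines, with 16 to 90 counts per library, and 35.2% of its exonic bases are shared with UFSP2. P4HA1, a collagen prolyl hydroxylase, rose by 0.39, 0.49 and 0.35 on the log2 scale, and the rise in shNT and in shNR4A3 was lost without composition scaling. KDM3A, a histone H3K9 demethylase, was at 10.2 to 16.3 TPM (median 12.9) in basal and 3.59 to 7.69 TPM (median 5.39) in LPS-stimulated shNT libraries. Log2 fold changes were -0.98 (SE 0.10, adjusted p = 2.64e-10), -0.91 (SE 0.10, adjusted p = 7.7e-10) and -0.97 (SE 0.10, adjusted p = 1.49e-10), without overlap in any line. The E-box repressor BHLHE40 had a log2 fold change of -1.02 (SE 0.14, adjusted p = 9.77e-07) in shNT and -0.65 (SE 0.14, adjusted p = 0.000348) in shNR4A2 and was not called in shNR4A3, at -0.31 (SE 0.14, adjusted p = 0.0693). MXI1, an antagonist of MYC, fell in all 3 lines, at -0.44 (SE 0.08), -0.41 (SE 0.08) and -0.57 (SE 0.08). BNIP3 and BNIP3L, which mark mitochondria for autophagy, and NDRG1 and P4HA2 were not called in any line.

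In glycolysis proper, the abundant enzymes changed little, and PFKFB4 and HK2 had the largest falls. PFKFB4, which makes or removes the activator of phosphofructokinase, had a log2 fold change of -0.60 (SE 0.16, adjusted p = 0.0032), -0.56 (SE 0.16, adjusted p = 0.00351) and -0.65 (SE 0.16, adjusted p = 0.00102). Its isozyme PFKFB3 was not called, at -0.12 (SE 0.12, adjusted p = 0.433) in shNT, -0.24 (SE 0.11, adjusted p = 0.091) in shNR4A2 and 0.20 (SE 0.12, adjusted p = 0.152) in shNR4A3. The inducible hexokinase HK2 was at 13.2 to 27.4 TPM (median 23.9) in basal and 9.05 to 14.2 TPM (median 12.9) in LPS-stimulated shNR4A2 libraries. It fell in shNR4A2, at -0.57 (SE 0.13, adjusted p = 0.00074), and in shNR4A3, at -0.38 (SE 0.13, adjusted p = 0.0175), and was not called in shNT, at -0.20 (SE 0.13, adjusted p = 0.241). HK1 and HK3 were not called. PFKM rose in shNR4A3 only, at 0.54 (SE 0.16, adjusted p = 0.0061), a call lost with library size only, and PDK1 fell in shNR4A3 only, at -0.36 (SE 0.10, adjusted p = 0.00414). LDHA was not called in any line, at 0.10 (SE 0.08, adjusted p = 0.29), 0.13 (SE 0.08, adjusted p = 0.145) and 0.01 (SE 0.08, adjusted p = 0.946).

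The pyruvate kinase PKM rose by 0.24, 0.46 and 0.36 on the log2 scale, PGK1 by 0.26, 0.34 and 0.26, and GAPDH by 0.20, 0.29 and 0.22. The calls of GAPDH in every line, of PKM in shNT and of PGK1 in shNT and shNR4A3 were lost with library size only. ENO1 rose by 0.14, 0.21 and 0.18, a call lost in shNT in 6 of 12 fits without 1 library, and reversed to -0.0559, -0.0175 and -0.0336 with library size only. TPI1 was called in shNR4A2 and shNR4A3, at 0.17 and 0.15, and reversed to -0.0525 and -0.0672. LDHB was called in the same lines, at 0.22 and 0.13, and reversed to -0.00532 and -0.0781. ALDOA and ALDOC were called in shNR4A2 and shNR4A3 and lost the call with library size only. On TPM, ENO1 was at 1833 to 2404 TPM (median 2189) in basal and 1689 to 2332 TPM (median 2042) in LPS-stimulated shNT libraries, which overlapped. The direction of ENO1, TPI1 and LDHB therefore depends on the scaling.

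**Figure D2:**
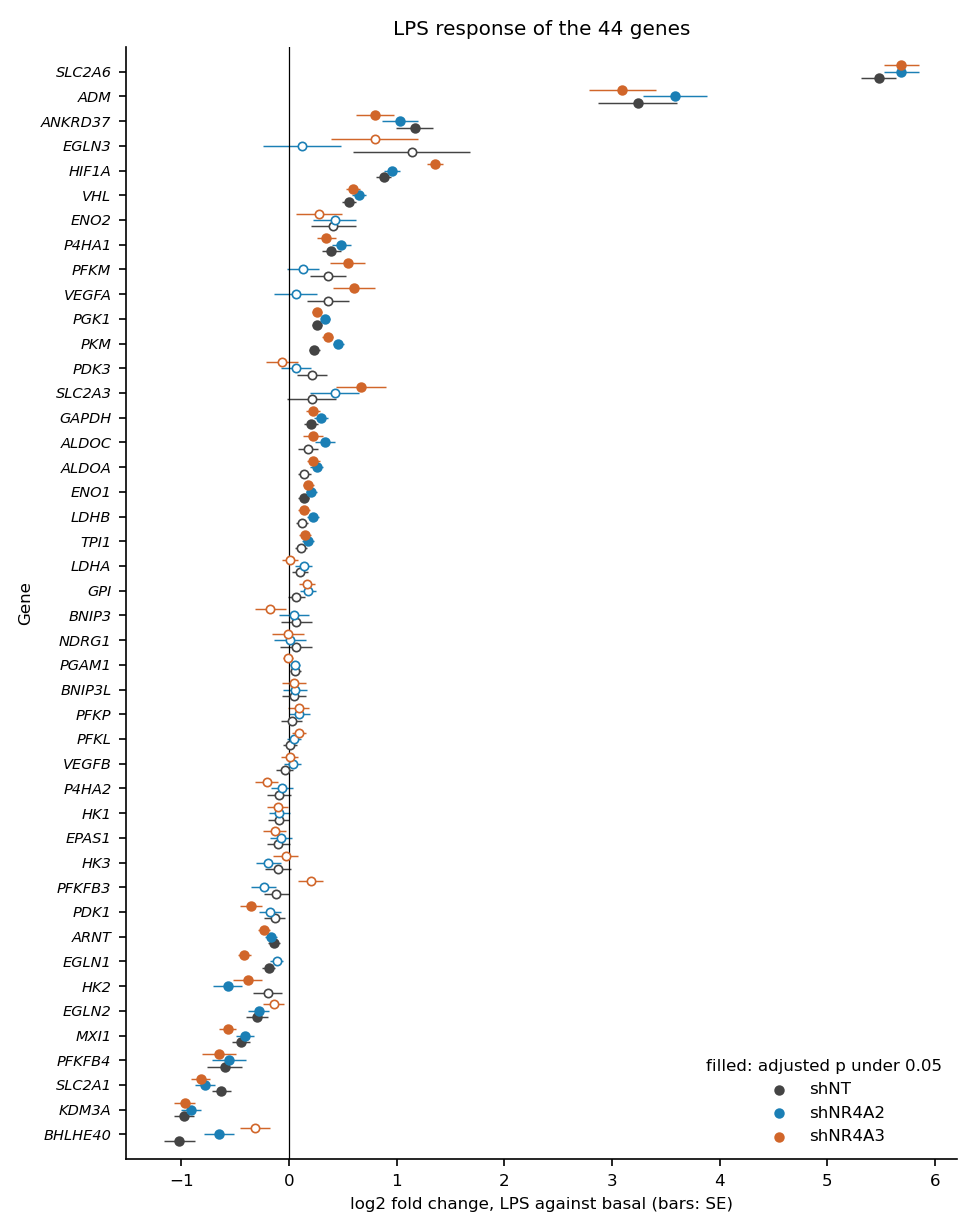
Log2 fold change of LPS-stimulated against basal cells (horizontal axis, bars are SE) for the 44 genes (vertical axis) in shNT, shNR4A2 and shNR4A3; filled points passed an adjusted p of 0.05. SLC2A6 and ADM lie above 3 in each line, and KDM3A, SLC2A1 and BHLHE40 have the lowest values in shNT.

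At 10% CO2 the members moved downwards more often than upwards, in the basal state and with LPS. Averaged over the 3 lines, 1 member rose and 8 fell in the basal state, where 8.67% of all tested genes rose and 8.72% fell. With LPS, 4 rose and 15 fell, where 14% of all genes rose and 15.3% fell. The falls were thus more than the background, which was not matched for abundance, in both states, and the rises were fewer. The median log2 fold change of the 44 genes was -0.10 without and -0.12 with LPS, against -0.01 and 0.00 for all tested genes. HK2 rose in both states, ARNT, BHLHE40, BNIP3L, EPAS1, KDM3A, NDRG1 and PDK1 fell in both, and 24 members were called in neither. The changes were small, with none above 0.61 in size on the log2 scale.

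NDRG1, a stress-responsive HIF target, had the largest called fall in both states. With LPS its libraries at 5% and 10% CO2 were at 79.2, 81.1 and 56.8 and at 51.7, 30.1 and 48.7 TPM in shNT, at 69.1, 92.5 and 52.4 and at 47.1, 37.2 and 46.4 TPM in shNR4A2, and at 40.5, 61.9 and 43.8 and at 29.5, 27.6 and 37.7 TPM in shNR4A3. The libraries at 10% CO2 were below those at 5% in every line. In the basal state this held in 2 of the 3 lines. Averaged over the lines, NDRG1 fell at -0.45 (SE 0.12, adjusted p = 0.00991) without and -0.61 (SE 0.12, adjusted p = 0.000422) with LPS.

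BNIP3L (NIX), a receptor for the autophagy of mitochondria, gave the same picture. In shNT it was at 33.0, 29.6 and 34.6 TPM at 5% and 25.9, 19.4 and 22.0 TPM at 10% CO2 in the basal state, and at 29.0, 30.7 and 27.6 and 21.7, 14.5 and 20.9 TPM with LPS. The 3 libraries at 10% CO2 were below the 3 at 5% in every line with LPS and in 2 lines in the basal state. The averaged log2 fold changes were -0.39 (SE 0.09, adjusted p = 0.00234) and -0.56 (SE 0.09, adjusted p = 2.02e-05) in the basal and LPS-stimulated states. Its relative BNIP3 was called with LPS only, at -0.38 (SE 0.12, adjusted p = 0.0156), against -0.20 (SE 0.12, adjusted p = 0.256) in the basal state.

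KDM3A was at 16.3, 13.2 and 14.9 TPM at 5% and 12.5, 10.2 and 11.3 TPM at 10% CO2 in basal shNT cells, and its libraries did not overlap between CO2 levels in any basal line. KDM3A fell at -0.36 (SE 0.08, adjusted p = 0.00108) without and -0.47 (SE 0.08, adjusted p = 3.93e-05) with LPS. BHLHE40 likewise did not overlap in any basal line, with 138, 101 and 94.3 TPM at 5% and 87.8, 63.8 and 92.2 TPM at 10% CO2 in shNT. It fell at -0.40 (SE 0.11, adjusted p = 0.0145) in the basal state and at -0.30 (SE 0.12, adjusted p = 0.0498) with LPS, where its libraries overlapped in every line and the call was lost in 13 of 18 fits without 1 library. MXI1 was called with LPS, at -0.18 (SE 0.07, adjusted p = 0.0442), though not in 10 of 18 such fits, and was not called in the basal state, at 0.18 (SE 0.07, adjusted p = 0.0532). This difference of -0.36 (SE 0.09, adjusted p = 0.0344) between the states was the only one called among the members, where 1.99% of all genes were called, and it was lost in 17 of 36 fits without 1 library.

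Of the HIF subunits, ARNT and EPAS1 fell and HIF1A did not. ARNT was at 109, 95.3 and 111 TPM at 5% and 80.7, 74.4 and 78.4 TPM at 10% CO2 in basal shNT cells, and at 85.8, 90.6 and 74.4 and 61.7, 48.2 and 65.0 TPM with LPS. The libraries at 10% CO2 were the lower in each of the 3 lines and in both states. The averaged log2 fold changes were -0.26 (SE 0.05, adjusted p = 0.000119) and -0.40 (SE 0.05, adjusted p = 1.11e-07), with the smallest adjusted p among the members in both states. EPAS1 fell at -0.27 (SE 0.09, adjusted p = 0.0253) in the basal state, a call lost in 6 of 18 fits without 1 library, and at -0.43 (SE 0.09, adjusted p = 0.000274) with LPS. With LPS, EPAS1 was at 12.6, 13.2 and 10.5 TPM at 5% and 9.46, 6.93 and 9.39 TPM at 10% CO2 in shNT, and it did not overlap in any line. HIF1A was not called in the basal state, at 0.02 (SE 0.06, adjusted p = 0.868), and rose with LPS, at 0.30 (SE 0.06, adjusted p = 0.00028). The difference between these responses was 0.28 (SE 0.08, adjusted p = 0.0812), which missed the threshold. EGLN1, EGLN2, EGLN3 and VHL were not called for CO2.

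**Figure D3:**
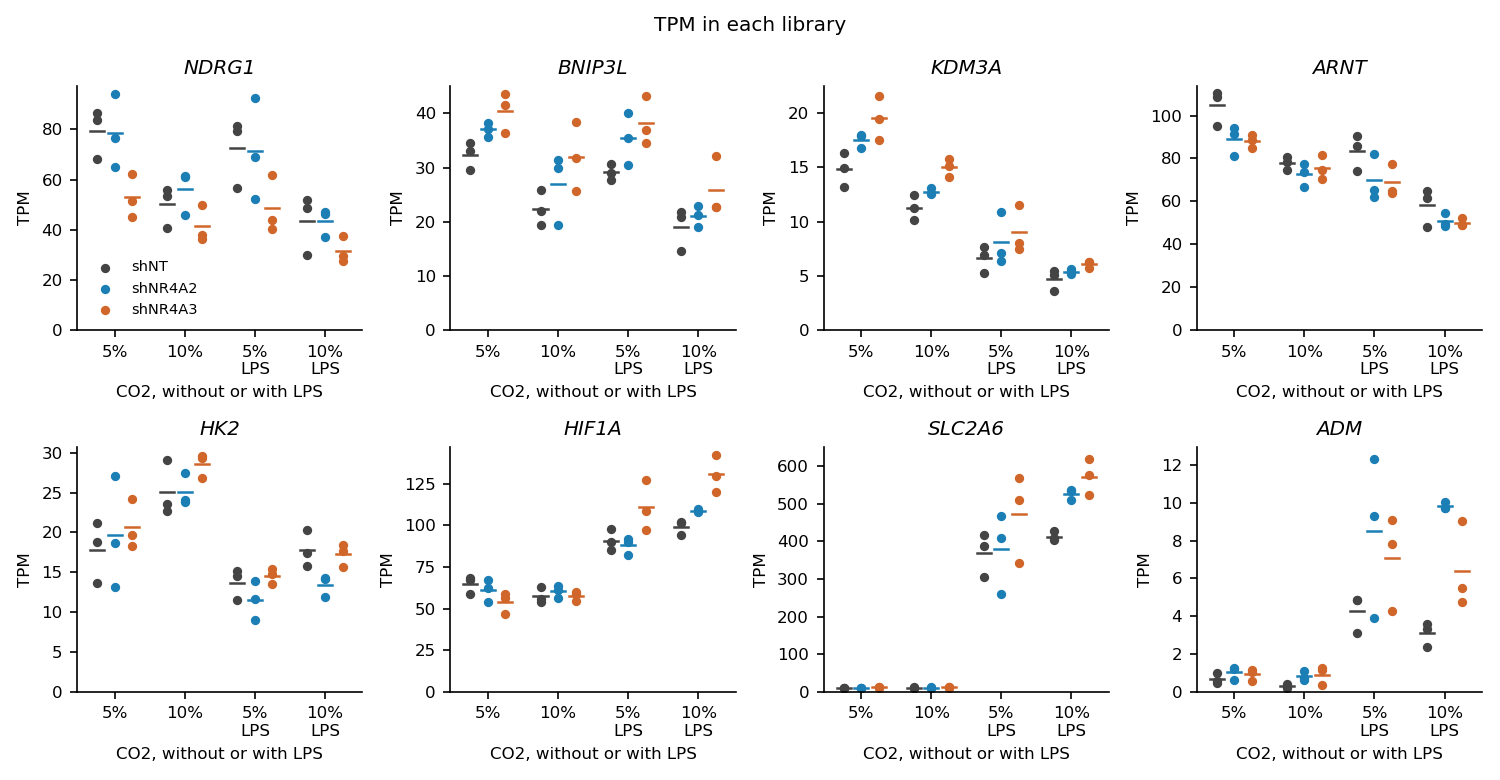
TPM (vertical axes) of 8 genes in each library at 5% and 10% CO2 without and with LPS (horizontal axes), by line (colour); points are libraries and bars are means of 3. NDRG1, BNIP3L, KDM3A and ARNT have lower means at 10% than at 5% CO2 in every line, HK2 has higher ones, and SLC2A6 and ADM are near the bottom of the axis without LPS.

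In the glycolytic pathway, the hexokinase HK2 was called higher at 10% CO2. In basal cells HK2 was at 21.1, 13.6 and 18.8 TPM at 5% and 29.1, 22.6 and 23.6 TPM at 10% CO2 in shNT, at 27.1, 13.2 and 18.7 and 27.4, 23.8 and 24.1 TPM in shNR4A2, and at 24.2, 18.2 and 19.7 and 29.6, 26.8 and 29.3 TPM in shNR4A3. The libraries at 10% CO2 were all the higher in shNT and shNR4A3 and overlapped in shNR4A2. Averaged over the lines, HK2 rose by 0.48 (SE 0.11, adjusted p = 0.00208) without and 0.36 (SE 0.11, adjusted p = 0.013) with LPS on the log2 scale. HK1 and HK3 were not called. PFKFB4 fell with LPS, at -0.57 (SE 0.14, adjusted p = 0.00157), from 4.77, 5.34 and 3.95 to 2.56, 2.02 and 3.58 TPM in shNT, and PFKFB3 fell at -0.26 (SE 0.09, adjusted p = 0.0397), a call lost in 11 of 18 fits without 1 library. In the basal state PFKFB3 had a log2 fold change of -0.16 (SE 0.09, adjusted p = 0.256) and was not called.

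PFKP, a phosphofructokinase, and ENO2, the minor enolase, were called with LPS, at -0.22 (SE 0.08, adjusted p = 0.0371) and -0.52 (SE 0.17, adjusted p = 0.0187). LDHA was at 489, 598 and 559 TPM at 5% and 426, 397 and 527 TPM at 10% CO2 in LPS-stimulated shNT cells, which overlapped. With all lines together LDHA fell with LPS, at -0.22 (SE 0.06, adjusted p = 0.00719), and was not called in the basal state, at -0.04 (SE 0.06, adjusted p = 0.696). PDK1, a kinase that inhibits pyruvate dehydrogenase, fell in both states, at -0.27 (SE 0.08, adjusted p = 0.0204) and -0.45 (SE 0.08, adjusted p = 0.000106). SLC2A1 was called with LPS, at -0.21 (SE 0.07, adjusted p = 0.0306), and not in the basal state, at 0.00 (SE 0.07, adjusted p = 0.991). The call of SLC2A1 was lost in 8 and that of PFKP in 9 of 18 fits without 1 library. SLC2A3 was not called in either state, though its basal mean TPM was lower at 10% CO2 in all 3 lines. In 2 of these lines its basal libraries did not overlap between CO2 levels. ALDOA, GAPDH, ENO1, GPI and PFKL had log2 fold changes between -0.15 and -0.10 with LPS and were not called.

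Besides HK2 and HIF1A, 2 members rose at 10% CO2 with LPS. SLC2A6 was at 409.8, 261 and 468 TPM at 5% and 534, 537 and 511 TPM at 10% CO2 in shNR4A2, without overlap, and its libraries overlapped in the other lines. Over the lines together it rose by 0.37 (SE 0.11, adjusted p = 0.00927) on the log2 scale. ANKRD37 rose by 0.42 (adjusted p = 0.0153). Of the secreted factors, VEGFB was called in the basal state, at -0.19 (SE 0.06, adjusted p = 0.0319), but not in 9 of 18 fits without 1 library. VEGFA was not called, at -0.16 (SE 0.16, adjusted p = 0.542) in the basal state and 0.18 (SE 0.16, adjusted p = 0.439) with LPS, and ADM was not called either. Replicate 1 had the highest VEGFA level in every condition, which widens the SE of a fit without a replicate block. In basal shNT cells VEGFA was at 74.9, 47.3 and 48.4 TPM at 5% and 59.9, 37.4 and 49.1 TPM at 10% CO2. Its basal mean TPM was lower at 10% CO2 in all 3 lines, with overlap in each.

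**Figure D4:**
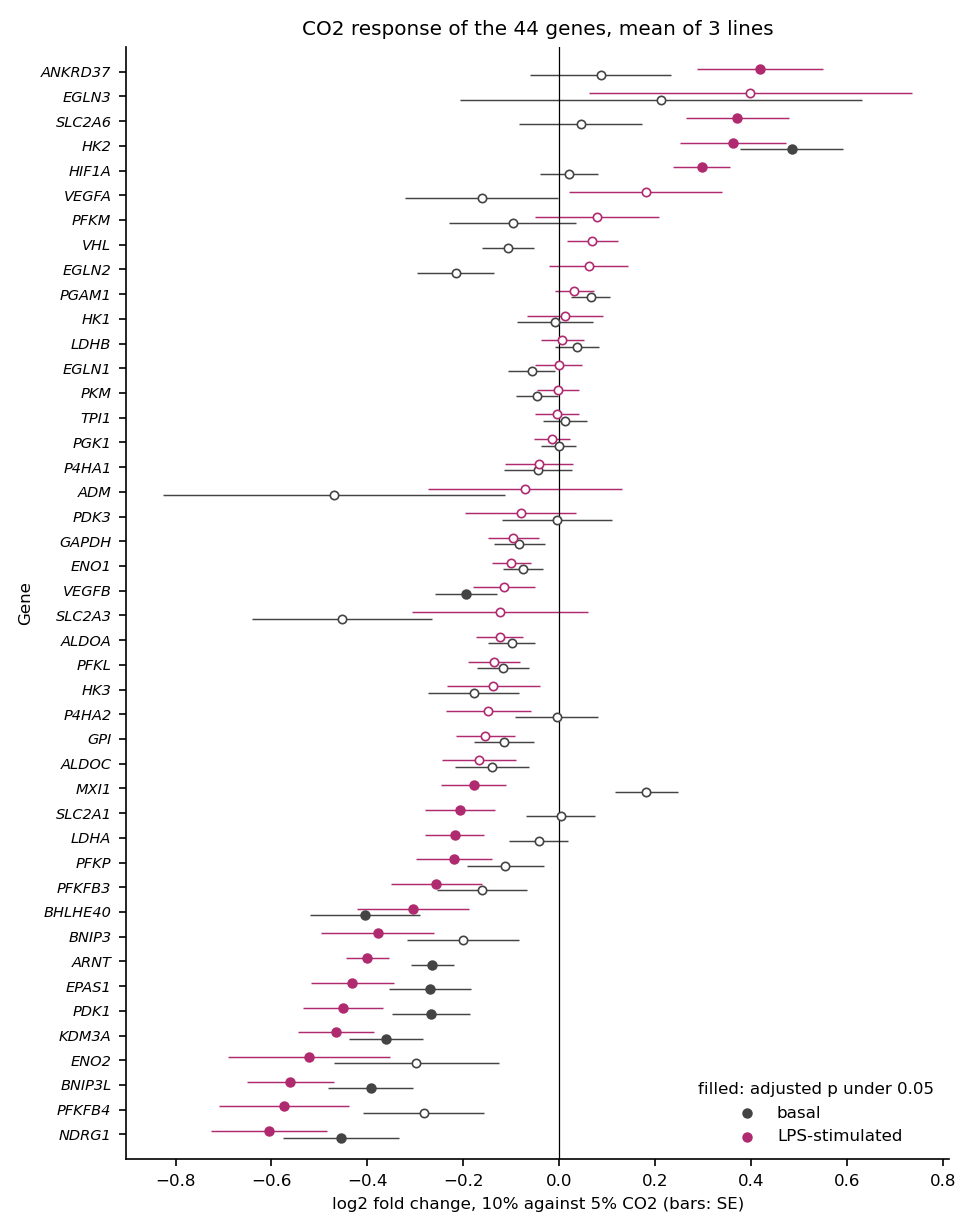
Log2 fold change of 10% against 5% CO2 averaged over the 3 lines (horizontal axis, bars are SE) for the 44 genes (vertical axis), in basal and LPS-stimulated cells; filled points passed an adjusted p of 0.05. NDRG1, at -0.61 with LPS, lies lowest and HK2, at 0.48 in basal cells, lies highest.

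Within a single line few members passed the threshold. In the basal state ARNT was called in shNT, at -0.35 (SE 0.08, adjusted p = 0.0179), as 1 of 44 members, where 1.71% of all tested genes were called. None was called in shNR4A2 (0.327% of all genes) or shNR4A3 (0.604%), where DESeq2 also called 0 and where 5 and 6 members had an unadjusted p under 0.05. In basal shNR4A2 cells, where libraries with the same replicate number deviated together, a fit with the replicate number as a block called 1 member, HK2, at 0.43 (SE 0.11, adjusted p = 0.0392). The same fit called HK2 in basal shNR4A3, at 0.49 (SE 0.11, adjusted p = 0.0162), where the lowest correlation of same-numbered libraries was 0.0447. With LPS, ARNT was called again in shNT, at -0.39 (SE 0.08, adjusted p = 0.00288), as 1 of 44 members (7.27% of all genes). In shNR4A2 (5.69% of all genes) 4 were called, namely BNIP3L at -0.69 (SE 0.16, adjusted p = 0.00933), KDM3A at -0.52 (SE 0.14, adjusted p = 0.0207), ARNT at -0.39 (SE 0.08, adjusted p = 0.00427) and HIF1A at 0.36 (SE 0.10, adjusted p = 0.0344). In shNR4A3 (4.85% of all genes) 4 were called, namely PDK1 at -0.57 (SE 0.15, adjusted p = 0.0221), EPAS1 at -0.52 (SE 0.15, adjusted p = 0.0407), KDM3A at -0.50 (SE 0.14, adjusted p = 0.0277) and ARNT at -0.41 (SE 0.08, adjusted p = 0.00287).

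These counts depended on single libraries, ranging over fits without 1 library from 0 to 1 in basal shNT, 0 to 3 in shNT with LPS, 0 to 8 in shNR4A2 with LPS and 1 to 5 in shNR4A3 with LPS. In basal shNT, 0 were called without replicate 1 or 3 at 5% CO2 or replicate 2 at 10% CO2. In shNT with LPS, 0 were called without replicate 2 at 10% CO2, and 3 were called without replicate 3 at 5% CO2. In shNR4A2 with LPS, 0 were called without replicate 2 at 5% CO2, and 8 were called without replicate 3 at 5% CO2. In shNR4A3 with LPS, 1 was called without replicate 2 at 5% CO2 or replicates 1 or 2 at 10% CO2, each left out alone. HK2 had a basal log2 fold change of 0.58 (SE 0.19), 0.40 (SE 0.19) and 0.47 (SE 0.19) in shNT, shNR4A2 and shNR4A3, and NDRG1 with LPS one of -0.61 (SE 0.21), -0.64 (SE 0.21) and -0.57 (SE 0.21). No member, and 0% of all tested genes, had a CO2 response called as different between shNR4A2 or shNR4A3 and shNT, by edgeR or by DESeq2. At an unadjusted p under 0.05 there were 0 members in shNR4A2 and 2 in shNR4A3. The SE of the difference was 0.10 for HIF1A, 0.11 for LDHA and 0.19 for HK2. A difference has to be several times its SE to be called. The only difference between lines called among the members, that of HIF1A for LPS, was 0.48 with an SE of 0.10. Differences of several SE between the CO2 responses of the lines may thus have been missed.

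The knockdown lines differed from shNT in several members, and the results are given for the mean of both CO2 levels. In shNR4A2 10 members were higher and 6 lower in the basal state (12.1% and 11.9% of all tested genes), and 13 higher and 3 lower with LPS (14.8% and 14.1%). In shNR4A3 7 were higher and 4 lower in the basal state (8.1% and 7.37%), and 11 higher and 7 lower with LPS (12.3% and 12.7%). The higher members exceeded the background share, which was not matched for abundance, in all 4 comparisons. The lower members also exceeded theirs in basal shNR4A2 and in both states of shNR4A3, and were below it in shNR4A2 with LPS. EGLN1, EGLN3, EPAS1, HK1, HK3, P4HA2, PFKFB3, PFKM and PKM were higher in shNR4A2 in both states, and ARNT and MXI1 lower. The mean of log2 CPM over the 44 genes was higher than in shNT by 0.14 without and 0.16 with LPS in shNR4A2, and by 0.05 and 0.07 in shNR4A3. The shNR4A3 values were 0.0242 without replicate 3 of basal shNT at 5% CO2 and 0.0436 without replicate 3 of LPS-stimulated shNR4A3 at 10% CO2. BNIP3L, EGLN3, HK1, KDM3A, PGAM1 and PKM were higher in shNR4A3 in both states, and MXI1 and P4HA1 lower. The 2 lines were compared with the same shNT libraries, so their values are set side by side and not tested against each other. The summed level of 10 myeloid markers was 1074 to 1525 TPM in the shNT libraries, 1758 to 2171 TPM in shNR4A2 and 1903 to 2607 TPM in shNR4A3, without overlap with shNT. The part of this difference in the gene results below was not tested, and with 1 line for each hairpin the effect of the target and that of the line cannot be told apart. Whether the 3 lines were cultured and sequenced together is not given in the sources used here.

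HK1, the widespread hexokinase, was higher in both lines and both states. It was at 18.4 to 24.4 TPM (median 20.4) in the 6 LPS-stimulated shNT libraries, at 26.0 to 33.0 TPM (median 30.1) in shNR4A2 and at 25.1 to 31.6 TPM (median 28.2) in shNR4A3, without overlap with shNT. The log2 fold changes were 0.53 (SE 0.10, adjusted p = 9.01e-05) and 0.53 (SE 0.10, adjusted p = 6.9e-05) in shNR4A2 in the basal state and with LPS, and 0.45 (SE 0.10, adjusted p = 0.000974) and 0.44 (SE 0.10, adjusted p = 0.000904) in shNR4A3. HK3, a hexokinase of myeloid cells, was higher in shNR4A2, at 0.52 (SE 0.12, adjusted p = 0.00101) and 0.43 (SE 0.12, adjusted p = 0.00567), and was not called in shNR4A3. HK2 was not called in either line, at 0.05 (SE 0.13, adjusted p = 0.821) and -0.32 (SE 0.14, adjusted p = 0.0794) in shNR4A2 and 0.22 (SE 0.13, adjusted p = 0.295) and 0.04 (SE 0.13, adjusted p = 0.881) in shNR4A3.

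PFKFB3 was at 38.8 to 60.3 TPM (median 48.3) in basal shNT and 65.1 to 90.1 TPM (median 74.3) in basal shNR4A2 libraries, which did not overlap. In this line it was higher by 0.63 (SE 0.12, adjusted p = 0.000127) without and 0.51 (SE 0.12, adjusted p = 0.00107) with LPS on the log2 scale. In shNR4A3 it was called with LPS, at 0.59 (SE 0.12, adjusted p = 0.000316), and not in the basal state, at 0.27 (SE 0.12, adjusted p = 0.126). The phosphofructokinase PFKM was higher in shNR4A2, at 0.75 (SE 0.16, adjusted p = 0.000509) and 0.52 (SE 0.16, adjusted p = 0.0113), with levels of 0.649 to 1.54 TPM (median 1.41) in basal shNT and 1.61 to 2.60 TPM (median 2.19) in basal shNR4A2. PKM was higher in both lines, by 0.18 and 0.40 in shNR4A2 and 0.23 and 0.35 in shNR4A3 on the log2 scale. SLC2A1 was higher in basal shNR4A2, at 0.32 (SE 0.09, adjusted p = 0.00775), and lower in LPS-stimulated shNR4A3, at -0.33 (SE 0.09, adjusted p = 0.00577). It was not called in shNR4A2 with LPS, at 0.16 (SE 0.09, adjusted p = 0.172), or in basal shNR4A3, at -0.14 (SE 0.09, adjusted p = 0.33). LDHA was not called, at -0.19 (SE 0.08, adjusted p = 0.0633) and -0.16 (SE 0.08, adjusted p = 0.117) in shNR4A2 and -0.02 (SE 0.08, adjusted p = 0.887) and -0.12 (SE 0.08, adjusted p = 0.267) in shNR4A3.

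EPAS1 (HIF-2 alpha) was at 6.93 to 13.2 TPM (median 9.97) in LPS-stimulated shNT and 12.5 to 23.2 TPM (median 16.4) in shNR4A2 libraries. In shNR4A2 it was higher by 0.69 (SE 0.10, adjusted p = 5.1e-06) without and 0.72 (SE 0.11, adjusted p = 2.56e-06) with LPS on the log2 scale, and it was not called in shNR4A3, at 0.10 (SE 0.11) and 0.06 (SE 0.11). HIF1A was higher in LPS-stimulated shNR4A3, at 0.36 (SE 0.07, adjusted p = 0.000321), with 84.9 to 102 TPM (median 96.0) in shNT and 97.4 to 142 TPM (median 124) in shNR4A3. It was not called in basal shNR4A3, at -0.12 (SE 0.07, adjusted p = 0.331), or in shNR4A2, at -0.03 (SE 0.07, adjusted p = 0.851) and 0.06 (SE 0.07, adjusted p = 0.622). EGLN3 had the largest basal log2 fold changes, 2.27 (SE 0.47, adjusted p = 0.000408) in shNR4A2 and 1.55 (SE 0.51, adjusted p = 0.0353) in shNR4A3, and with LPS 1.26 (SE 0.42, adjusted p = 0.0212) and 1.21 (SE 0.42, adjusted p = 0.0338). These rest on 1 to 25 counts per library, and the libraries did not overlap in shNR4A2 with LPS only. In shNR4A3 these calls were lost in 7 of 12 basal fits and 8 of 12 with LPS that left out 1 library. EGLN1 was higher in shNR4A2, at 0.21 (SE 0.06) and 0.29 (SE 0.06), and in basal shNR4A3, at 0.30 (SE 0.06).

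MXI1 was the member that was lowest against shNT with LPS in both lines. In basal libraries it was at 44.4 to 57.7 TPM (median 52.1) in shNT, 29.6 to 37.8 TPM (median 33.5) in shNR4A2 and 33.1 to 41.8 TPM (median 35.4) in shNR4A3, and both knockdown lines lay below shNT without overlap. It had log2 fold changes of -0.66 (SE 0.08, adjusted p = 1.44e-07) and -0.62 (SE 0.08, adjusted p = 4.03e-07) in shNR4A2 and -0.50 (SE 0.08, adjusted p = 2.03e-05) and -0.63 (SE 0.08, adjusted p = 4.71e-07) in shNR4A3. ADM was higher with LPS, at 1.35 (SE 0.25, adjusted p = 0.000108) in shNR4A2 and 0.91 (SE 0.25, adjusted p = 0.00797) in shNR4A3. VEGFA was not called in either line, at 0.24 (SE 0.20, adjusted p = 0.419) and -0.06 (SE 0.20, adjusted p = 0.852) in shNR4A2 and -0.08 (SE 0.20, adjusted p = 0.843) and 0.16 (SE 0.20, adjusted p = 0.595) in shNR4A3.

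In shNR4A3, KDM3A was higher, at 0.42 (SE 0.09, adjusted p = 0.00145) and 0.43 (SE 0.10, adjusted p = 0.00127), and BNIP3L was higher, at 0.43 (SE 0.11, adjusted p = 0.00571) and 0.43 (SE 0.11, adjusted p = 0.00361). In LPS-stimulated cells PDK3 and PDK1, kinases of pyruvate dehydrogenase, were lower, at -0.57 (SE 0.14, adjusted p = 0.00285) and -0.43 (SE 0.10, adjusted p = 0.00199), and so were NDRG1, at -0.50 (SE 0.15, adjusted p = 0.0142), and P4HA1, at -0.35 (SE 0.09, adjusted p = 0.00291). In the basal state PDK3, PDK1 and NDRG1 were not called, at -0.29 (SE 0.14), -0.21 (SE 0.10) and -0.42 (SE 0.15). The HIF targets KDM3A and BNIP3L were thus above shNT, and NDRG1 and P4HA1 below.

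The remaining calls were mostly small. In basal shNR4A2, P4HA1, ARNT, TPI1, ENO1 and PGK1 were lower, at -0.27, -0.19, -0.17, -0.15 and -0.14 on the log2 scale, of which TPI1 and ENO1 lost the call with library size only and in 5 and 6 of 12 fits without 1 library, and P4HA1 and PGK1 in 4 each, and P4HA2 was higher, at 0.37. In LPS-stimulated shNR4A2, P4HA2, PFKP, ALDOC and KDM3A were higher, at 0.40, 0.31, 0.27 and 0.26, and ARNT and PGAM1 were lower, at -0.22 and -0.13. Of these, ALDOC and KDM3A lost the call with library size only and in 7 and 5 of 12 fits without 1 library, and PGAM1 lost it under 5 of 8 alternatives and in 8 of 12 such fits. In basal shNR4A3, BHLHE40, P4HA1 and VEGFB were lower, at -0.45, -0.30 and -0.25, and PGAM1 was higher, at 0.23. The calls of BHLHE40 and VEGFB were lost with no filter and in 6 and 4 of 12 fits without 1 library. In LPS-stimulated shNR4A3, SLC2A6, EGLN2 and PGAM1 were higher, at 0.43, 0.35 and 0.16, and ARNT was lower, at -0.23. The call of PGAM1 was lost with library size only and with no filter, and that of SLC2A6 with no filter.

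**Figure D5:**
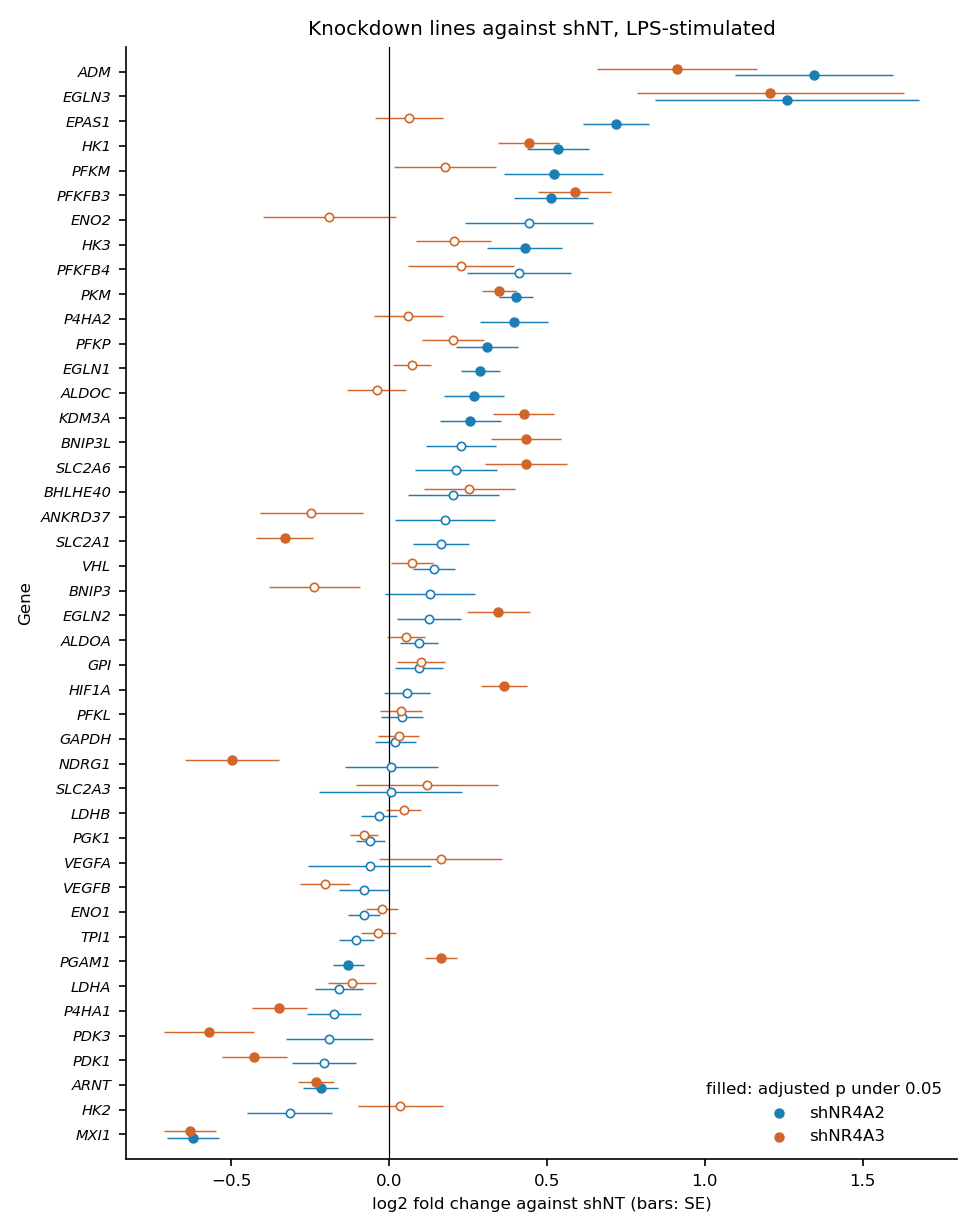
Log2 fold change of LPS-stimulated shNR4A2 and shNR4A3 against shNT cells, mean of both CO2 levels (horizontal axis, bars are SE), for the 44 genes (vertical axis); filled points passed an adjusted p of 0.05. ADM and EGLN3 lie highest in both lines and MXI1 lies lowest.

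Other genes of the pathways that are no members gave a frame for these counts. Of 30 other genes of glycolysis and pyruvate entry, 19 were tested. With LPS 5 rose and 6 fell in shNT, 5 and 8 in shNR4A2, and 4 and 7 in shNR4A3. Among all tested genes, 19.7% rose and 22.6% fell in shNT, 22.5% and 25.5% in shNR4A2, and 22.3% and 25.8% in shNR4A3. The largest changes in shNT were of PDK4, a pyruvate dehydrogenase kinase, at -3.10 (SE 0.28, adjusted p = 1.14e-10), and of the pyruvate dehydrogenase phosphatases PDP2 and PDP1, at -0.96 (SE 0.11, adjusted p = 4.94e-09) and -0.90 (SE 0.09, adjusted p = 8.25e-10). Averaged over the lines, CO2 was called in 1 that fell in the basal state, PDK4 at -0.74 (SE 0.17, adjusted p = 0.00261), and with LPS in 5 that rose and 9 that fell, led by PDK4 at -1.17 (SE 0.28, adjusted p = 0.00176), LDHD at -0.79 (SE 0.21, adjusted p = 0.00563) and PDK2 at -0.48 (SE 0.10, adjusted p = 0.000432). The shares of all tested genes that rose and fell were 8.67% and 8.72% in the basal state and 14% and 15.3% with LPS. Against shNT, 2 were higher and 2 lower in basal shNR4A2, 5 and 4 with LPS, none in basal shNR4A3, where 1 had an unadjusted p under 0.05, and 0 and 4 in shNR4A3 with LPS. For all tested genes these shares were 12.1% and 11.9%, 14.8% and 14.1%, 8.1% and 7.37%, and 12.3% and 12.7%, in the same order.

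Of 39 other hypoxia-inducible or HIF pathway genes, 34 were tested. With LPS 13 rose and 5 fell in shNT, 12 and 6 in shNR4A2, and 11 and 6 in shNR4A3, led in shNT by IGFBP3 at 4.32 (SE 0.21, adjusted p = 2.81e-15), FLT1, a VEGF receptor, at 3.79 (SE 0.37, adjusted p = 9.35e-10) and PDGFB at 3.54 (SE 0.47, adjusted p = 1.35e-07). At 10% CO2, averaged over the lines, 2 rose and 7 fell in the basal state and 6 rose and 7 fell with LPS. The largest changes with LPS were of ZNF395 at -0.95 (SE 0.15, adjusted p = 3.05e-05), FLT1 at 0.81 (SE 0.19, adjusted p = 0.00202) and RORA at 0.75 (SE 0.25, adjusted p = 0.021). The median of these 34 was -0.08 without and -0.08 with LPS, and that of the 19 glycolysis genes was -0.09 and -0.24. Against shNT, 5 were higher and 10 lower in basal shNR4A2, 7 and 12 with LPS, 2 and 4 in basal shNR4A3, and 6 and 9 with LPS. The shares of all tested genes printed beside the 19 glycolysis genes apply to these counts as well.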

How the data were processed

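The deposited values are whole-number counts per gene, 1 library per file, with no normalization. The authors selected polyadenylated RNA, trimmed paired-end reads (Trimmomatic 0.36), aligned them to GRCh38 (STAR 2.5.2b) and took unique hits per gene (featureCounts of Subread 1.5.2). The annotation release and the strand setting are not given in the sources used here. Symbols matched 56410 of 57500 gene IDs (98.1%). Members, lists and tests were chosen with earlier results of these data known.

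The 36 libraries were fitted together with the 12 conditions as groups (edgeR 4.0.16 quasi-likelihood F test, robust, under R 4.3.3; TMM; filterByExpr with minimum count 10 and minimum total 15), and 20 contrasts were tested. P-values were adjusted by Benjamini-Hochberg over 17720 genes, and genes under 0.05 are called. SE is the log2 fold change divided by the square root of F. Log2 CPM used a prior count of 2. TPM used the lengths in the files. The paper's methods name DESeq2, which was an alternative here (1.42.0). The other alternatives were RLE scaling, library size only, no filter, a filter at 1 CPM, a replicate block, each comparison's own libraries, an adjusted p of 0.01 and leaving out each library. The test was also run on simulated counts drawn independently for each library. That run does not cover the correlation of same-numbered libraries, and its outcome is not given here. No 2 replicates agreed within sampling noise (chi-square per degree of freedom 6.63 to 29.6).

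Every member is counted in each comparison, but members that were not called are named only in part. Full statistics were given for called members, largest changes first, and for HIF1A, SLC2A1, HK2, PFKFB3, LDHA and VEGFA throughout. Genes of the 2 other lists were named for LPS and CO2 when among the largest 3 called, and 1 gene of these lists is not reported here. Same-numbered libraries correlated above 0.1 in every pair only between CO2 levels in basal shNR4A2 (0.19 to 0.31), a pairing that comes from the data and not from the labels.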

Additional observations from a re-analysis of the deposited data

Results flagged for a closer look

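The LPS response of HIF1A differed between shNR4A3 and shNT by 0.48 on the log2 scale (SE 0.10, adjusted p = 0.026), with log2 fold changes of 1.36 and 0.88. It is listed here because the same contrast gave different effects in 2 lines by a test of the difference.

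The CO2 response of MXI1 averaged over the lines differed between LPS-stimulated and basal cells by -0.36 (SE 0.09, adjusted p = 0.0344), with log2 fold changes of -0.18 and 0.18. It is listed because the effect of CO2 differed between the 2 states by a test of the difference.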

How the results depend on the processing

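The 166 calls of members in the 20 comparisons were refitted under 8 alternatives. Of the resulting values 1183 stayed past the threshold in the same direction, 134 did not pass it and 7 changed sign. With 1 library left out, 1901 stayed, 235 did not pass and 0 changed sign. All 7 changes of sign came with library size only, for LPS: ENO1 at -0.0559 in shNT, -0.0175 in shNR4A2 and -0.0336 in shNR4A3, TPI1 at -0.0525 and -0.0672 and LDHB at -0.00532 and -0.0781 in shNR4A2 and shNR4A3. The mean of log2 CPM over the members changed with LPS by 0.0458, 0.0244 and 0.0381 with library size only and by 0.11, 0.13 and 0.12 without SLC2A6, an alternative chosen after the data were seen, against 0.23, 0.25 and 0.25.

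Counts of members called moved by over 1.5 times as follows. For CO2 in basal shNT, 2 were called with no filter, 3 with the replicate block, 0 with its own libraries and 0 at an adjusted p of 0.01, against 1. With LPS in shNT it was 2 with library size only, 5 with no filter, 2 with a filter at 1 CPM, 8 with the replicate block, 5 with its own libraries and 3 by DESeq2, against 1. In shNR4A2 with LPS it was 7 with no filter, 7 with the block, 0 with its own libraries and 2 at 0.01, against 4. In shNR4A3 with LPS it was 7 with the block, 1 with its own libraries and 1 at 0.01, against 4. Against 0 in the basal state, the block gave 1 in shNR4A2 and 1 in shNR4A3, and no filter gave 1 in shNR4A3. Averaged over the lines, the block gave 15 and 0.01 gave 5 in the basal state, against 9, and 0.01 gave 10 with LPS, against 19. Against shNT, 0.01 gave 10 in basal shNR4A2, 10 with LPS and 7 in basal shNR4A3, against 16, 16 and 11. The block gave 1 for the LPS response of shNR4A2 against that of shNT. For that of shNR4A3 the block gave 2, DESeq2 gave 2 and 0.01 gave 0, and for CO2 with LPS against basal these gave 4, 2 and 0, against 1 each. The cause of these shifts was not tested.

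With 1 library left out, counts ranged from 0 to 1 for CO2 in basal shNT, 0 to 3 in shNT with LPS, 0 to 8 in shNR4A2 with LPS, 1 to 5 in shNR4A3 with LPS, 0 to 1 for the LPS response of shNR4A3 against that of shNT and 0 to 2 for CO2 with LPS against basal. Averaged over the lines they ranged from 7 to 10 in the basal state and 13 to 21 with LPS. Apart from basal shNR4A2, same-numbered libraries did not correlate above 0.1 in every pair (lowest correlation -0.17). Their median correlation was still above that of other pairs in every comparison except CO2 in shNT with LPS. For CO2 in the basal state averaged over the lines it was 0.13 against -0.06. The main fit does not take this into account, and whether a shared number marks the same experiment is not given in the sources used here. EGLN3 did not reach the filter at 1 CPM in its 4 calls, which gave no value there.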
